A study of Mus musculus with 15 samples.

Results

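The MHC class I and immunoproteasome genes were followed in the liver transcriptome of aged mice given protectin DX (PDX), a lipid mediator derived from docosahexaenoic acid. The 10 genes were taken by name, with earlier results of these data known, and comprised the class I heavy chains H2-K1 and H2-D1, the light chain B2m, the peptide transporter and loading genes Tap1, Tap2 and Tapbp, the inducible proteasome subunits Psmb8, Psmb9 and Psmb10, and the regulator Nlrc5. All 10 were found among 55450 gene IDs of the count table, and all 10 were among the 15808 genes with enough counts to be tested. RNA came from female C57BL/6 mice, 5 per group, with 1 library per mouse. At the start, mice of the Adult group (A1 to A5) had an age of 6 months and those of the Old group (O1 to O5) of 22 months, and corn oil, the vehicle, was given to both by daily gavage. The PDX group (P1 to P5), likewise aged 22 months, was given PDX in this oil at 30 ng per g of body weight. The sample labels give 9 weeks of gavage. No Adult mice received PDX, so PDX versus Adult combines age and treatment, whereas PDX versus Old compares treatment at 1 age.

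Poly(A) RNA was sequenced on strand-specific libraries of paired 50-base reads, and 22424383 to 36070835 read pairs per mouse were assigned to genes. At this depth the 10 genes had between 73 counts (Psmb9 in O5) and 69118 counts (H2-K1 in an Adult mouse). Levels are given as CPM, the count of a gene relative to the total of its library, after scaling by TMM, a correction for differences in RNA composition between libraries. The scaling factor was 1.33 in O2 and between 0.88 and 1.08 in the other mice. The hepatocyte markers Alb, Apoa1, Ttr, Cps1, Asgr1 and Cyp2e1 were detected in every mouse, with a summed level of 46835 to 201388 CPM. The lowest sum was that of O5, and that of O2 was 75274 CPM. O2 and O5 stood apart in many genes: O2 was the highest of the 15 mice in 20.1% of all tested genes and O5 the lowest in 28.4%. Results that rest on these mice are therefore given with and without them. Since the libraries are of whole liver, fewer cells of a type and less RNA per cell cannot be told apart, and the p-values measure the spread between single mice. Euthanasia was done in batches, but which mouse belonged to which batch is not given in the sources used here.

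Class I molecules display peptides from the cell's own proteins to CD8+ T cells. A polymorphic heavy chain (H2-K1 and H2-D1 in C57BL/6) pairs with beta-2 microglobulin, encoded by B2m. Peptides are cut by the proteasome, carried into the endoplasmic reticulum by the Tap1-Tap2 transporter and brought to the empty heavy chain by tapasin, the product of Tapbp. Interferon-gamma induces most genes of the pathway, among them Psmb8, Psmb9 and Psmb10, whose products replace the catalytic subunits Psmb5, Psmb6 and Psmb7 of the standard proteasome to form the immunoproteasome. Nlrc5 encodes a transactivator that acts on class I genes through an enhanceosome built on the X and Y boxes of their promoters. In the liver, hepatocytes carry class I at modest density, while resident and infiltrating leukocytes carry more.

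Most of the pathway lies within the MHC on mouse chromosome 17 (build GRCm38, the assembly that mm10 names, GENCODE M21). On it are H2-K1 (chr17:33996017-34000347, minus strand), H2-D1 (chr17:35262730-35267499, plus), Tapbp (chr17:33915899-33929292, plus), Psmb9 (chr17:34181987-34187764, minus), Tap1 (chr17:34187553-34197225, plus), Psmb8 (chr17:34197721-34201454, plus) and Tap2 (chr17:34203527-34216321, plus). B2m lies on chromosome 2 (chr2:122147686-122153083, plus). Nlrc5 (chr8:94434356-94527272, plus) and Psmb10 (chr8:105935735-105938444, minus) lie on chromosome 8. Tap1 and Psmb9 are transcribed away from each other, and their exons overlap by 212 bases on opposite strands. Counting was on the strand of each gene, so such reads were kept apart, but Tapbp also shares 149 exon bases with Zbtb22 on the same strand. The heavy chains share sequence with other class I genes: of the 50-base stretches of the annotated transcripts, 9.63% in H2-K1 and 12.8% in H2-D1 occur in transcripts of other genes, foremost H2-Q10 for H2-K1 and H2-Q1 for H2-D1. The share was higher still in Tapbp (23.2%), similar in Psmb8 (11.9%) and Tap2 (11.6%), 0.338% to 4.19% in Nlrc5, Tap1 and Psmb9, and 0% in B2m and Psmb10. Only uniquely aligned pairs were counted, so the levels of the heavy chains are less certain. In the other genes with shared stretches, the foremost partner overlaps the gene on the opposite strand, and such reads were kept apart by strand.

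The promoters are shown because the members carry different regulatory letters around their RefSeq starts. RefSeq promoter windows (GRCm38.p6, 250 bases before to 50 bases after the annotated start) were matched for 8 of the 10 genes, all but Tap2 and Nlrc5. These starts can differ from the GENCODE starts given above. The windows of H2-D1, Tapbp, Psmb8 and Psmb9 lie wholly within the gene as GENCODE bounds it. Both strands were searched for an interferon-stimulated response element core (GAAANNGAA), a gamma-activated site (TTCNNNGAA) and a kappa B-like motif (GGGNNTTCC). A further search, chosen after the sequences had been read, was for TGACG followed by ATTGG at a distance of 18 to 22 bases, letters of the X2 and Y boxes of class I promoters. The ATTGG is the reverse complement of the CCAAT box, so it is also counted among the matches to CCAAT. Matches other than CCAAT are in capitals, each written 5′ to 3′ on the strand of the gene.
H2-K1, chr17:34000298-34000597, minus strand: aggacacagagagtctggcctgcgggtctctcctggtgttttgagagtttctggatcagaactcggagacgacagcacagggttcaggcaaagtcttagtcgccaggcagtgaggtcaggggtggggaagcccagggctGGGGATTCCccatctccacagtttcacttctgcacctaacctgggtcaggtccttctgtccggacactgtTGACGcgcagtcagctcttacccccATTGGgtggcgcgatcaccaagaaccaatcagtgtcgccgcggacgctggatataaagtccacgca
H2-D1, chr17:35262844-35263143, plus strand: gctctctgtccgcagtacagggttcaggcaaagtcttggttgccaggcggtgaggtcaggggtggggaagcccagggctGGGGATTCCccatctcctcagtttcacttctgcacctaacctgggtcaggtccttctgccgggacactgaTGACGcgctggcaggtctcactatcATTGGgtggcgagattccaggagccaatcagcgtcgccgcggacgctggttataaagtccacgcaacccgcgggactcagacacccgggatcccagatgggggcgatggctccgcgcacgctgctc
B2m, chr2:122147437-122147736, plus strand: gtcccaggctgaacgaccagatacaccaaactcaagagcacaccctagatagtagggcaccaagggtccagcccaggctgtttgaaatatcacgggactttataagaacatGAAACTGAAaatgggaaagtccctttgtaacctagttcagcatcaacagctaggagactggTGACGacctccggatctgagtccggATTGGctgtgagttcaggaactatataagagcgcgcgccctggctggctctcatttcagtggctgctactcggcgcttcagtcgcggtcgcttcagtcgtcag
Tap1, chr17:34187306-34187605, plus strand: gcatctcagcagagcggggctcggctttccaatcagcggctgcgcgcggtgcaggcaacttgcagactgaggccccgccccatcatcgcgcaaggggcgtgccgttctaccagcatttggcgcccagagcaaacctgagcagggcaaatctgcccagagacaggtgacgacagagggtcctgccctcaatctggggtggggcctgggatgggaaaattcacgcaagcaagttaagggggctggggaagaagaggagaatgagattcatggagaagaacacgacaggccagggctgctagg
Psmb8, chr17:34197945-34198244, plus strand: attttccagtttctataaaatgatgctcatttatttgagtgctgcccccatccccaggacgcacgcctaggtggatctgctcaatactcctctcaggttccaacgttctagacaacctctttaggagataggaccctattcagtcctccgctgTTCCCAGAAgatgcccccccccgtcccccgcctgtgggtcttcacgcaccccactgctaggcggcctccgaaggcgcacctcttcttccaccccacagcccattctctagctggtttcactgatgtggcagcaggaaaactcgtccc

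The spaced pair TGACG and ATTGG occurred in H2-K1, H2-D1 and B2m, with 20 bases between its parts in all 3, and in 0.268% of the 32851 windows of the table. It began at position -41 from the RefSeq start in H2-K1, -101 in H2-D1 and -78 in B2m. H2-K1 has another RefSeq start, from which the pair began at -55. The kappa B-like match was present in H2-K1 and H2-D1, in the same letters, and in 5.82% of all windows. The response element core was found in B2m (8.56% of all windows) and the gamma-activated site in Psmb8 (8.30%). Only the exact letters and spacing of the core were searched, and variants of it were not. H2-K1 and H2-D1 both hold tttcacttc, which resembles the core on the opposite strand but differs in spacing and was not counted. A window without a match may therefore still hold an interferon response element. The windows of Tap1 and Psmb9 share 275 of 300 bases on opposite strands, so the sequence of Tap1 above is also most of the promoter of Psmb9. CCAAT was held by 6 of the 8 windows and by 37.4% of all. A match is a description of letters, not a site of binding.

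Per kilobase of exon, the light chain and the heavy chains were the most abundant members by far. In the Adult group, B2m had 1400 ± 91.2 CPM per kb, H2-K1 640 ± 31.7 and H2-D1 285 ± 18.5 (mean ± SD, n = 5 each). Tapbp (29.8 ± 2.25 CPM per kb) and Psmb10 (26.5 ± 2.12) followed, and their ranges overlapped. Psmb8 had 15.1 ± 1.06 and Tap2 13.0 ± 0.95 CPM per kb, without overlap. Tap1 (6.45 ± 0.91) and Psmb9 (6.05 ± 1.02) overlapped each other, and Nlrc5, at 2.04 ± 0.50 CPM per kb, was the lowest. The constitutive subunits Psmb5 (59.0 ± 2.35), Psmb6 (59.5 ± 4.43) and Psmb7 (41.4 ± 1.97) lay above each of the inducible subunits on the same scale. The length used is that of all annotated exons of a gene merged, 3381 bases for Psmb8 and 899 for Psmb5, not of a single transcript. In CPM without the length, Psmb8 (46.7 to 56.1) and Psmb5 (50.3 to 55.7) overlapped in the Adult mice. Psmb9 and Psmb10 lay below Psmb6 and Psmb7 in CPM too. The order per kilobase therefore depends on the lengths.

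**Figure D1:**
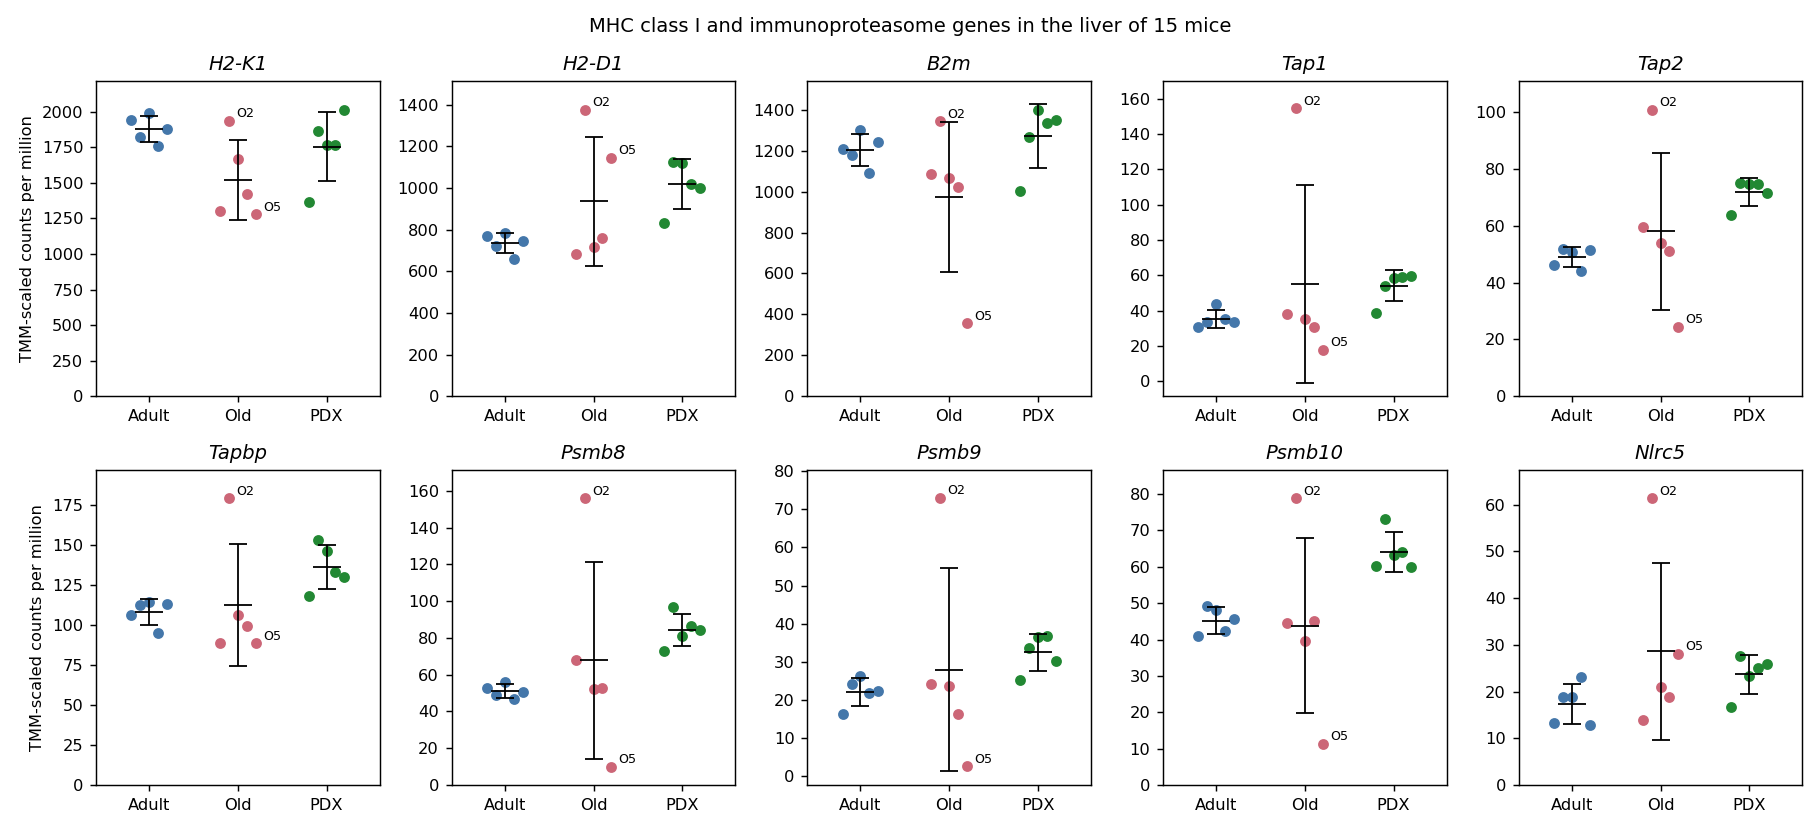
Level of each of the 10 genes in each mouse, in TMM-scaled CPM, by group; points are mice, the horizontal mark is the group mean and the bar 1 SD (n = 5). O2 is the highest of the 15 mice for 8 genes and O5 the lowest for 8, while the PDX mice lie above every Adult mouse for H2-D1, Tap2, Tapbp, Psmb8 and Psmb10.

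The heavy chains H2-K1 and H2-D1 differed in their pattern across the mice. H2-K1 had 1943, 1826, 1993, 1758 and 1877 CPM in A1 to A5, 1300, 1937, 1669, 1422 and 1280 in O1 to O5, and 1364, 1863, 1764, 1767 and 2015 in P1 to P5. O1, O3, O4 and O5 lay below every Adult mouse, O2 did not, and the PDX mice spread over both ranges. H2-D1 had 768, 720, 782, 661 and 744 CPM in the Adult mice, 683, 1375, 716, 760 and 1143 in the Old mice, and 830, 1125, 1118, 1021 and 1002 in the PDX mice. Every PDX mouse exceeded every Adult mouse, O1, O3 and O4 lay within the Adult range, and O2 and O5 were far above it. B2m had 1210, 1178, 1300, 1089 and 1244 CPM in the Adult mice, 1085, 1345, 1067, 1021 and 356 in the Old mice, and 1006, 1266, 1401, 1333 and 1353 in the PDX mice. O5 was far below every other mouse, O1, O3 and O4 were just below the lowest Adult mouse, and the PDX mice spread over the Adult range and beyond both ends of it.

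In the transporter and loading genes, most PDX mice were above the Adult mice and O2 was above all. Tap1 had 30.7, 33.6, 43.7, 35.3 and 33.4 CPM in the Adult mice, 38.2, 155, 35.2, 30.7 and 18.0 in the Old mice, and 38.9, 54.2, 58.5, 59.2 and 59.8 in the PDX mice. P1 alone fell inside the Adult range. Tap2 had 46.2, 52.0, 51.0, 44.1 and 51.6 CPM in the Adult mice, 59.7, 101, 53.9, 51.2 and 24.5 in the Old mice, and 63.7, 75.1, 74.7, 74.8 and 71.7 in the PDX mice. PDX and Adult did not overlap, and O2 and O5 lay beyond either end of the other 13 mice. Tapbp had 106, 113, 114, 94.6 and 113 CPM in the Adult mice, 88.4, 179, 106, 99.2 and 88.4 in the Old mice, and 118, 153, 146, 133 and 130 in the PDX mice. Again PDX and Adult did not overlap, and the Old mice other than O2 were within or below the Adult range, O1 and O5 being the lowest of all.

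For each inducible proteasome subunit, O2 was the highest and O5 the lowest of the 15 mice. Psmb8, which carries the chymotrypsin-like activity of the immunoproteasome, had 52.9, 49.1, 56.1, 46.7 and 50.5 CPM in the Adult mice, 68.1, 156, 52.1, 52.6 and 9.96 in the Old mice, and 73.0, 96.9, 80.8, 86.6 and 84.2 in the PDX mice. O1 was between the Adult and PDX ranges, which did not overlap. Psmb9 had 16.2, 24.1, 26.2, 21.8 and 22.5 CPM in the Adult mice, 24.1, 73.0, 23.8, 16.4 and 2.63 in the Old mice, and 25.2, 33.7, 36.4, 36.9 and 30.3 in the PDX mice. Here P1 overlapped A3. Psmb10 had 40.9, 49.3, 48.1, 42.3 and 45.7 CPM in the Adult mice, 44.6, 78.8, 39.6, 45.0 and 11.3 in the Old mice, and 60.2, 73.2, 63.1, 64.2 and 59.8 in the PDX mice. All PDX mice were above all Adult mice, and O1, O3 and O4 were within or just below the Adult range.

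Nlrc5, the regulator of the class I genes, did not follow most other members in O5. It had 13.2, 18.9, 18.8, 23.0 and 12.9 CPM in the Adult mice, 13.8, 61.4, 21.0, 18.7 and 28.1 in the Old mice, and 16.7, 27.7, 23.3, 24.9 and 25.8 in the PDX mice. Adult and PDX overlapped through P1, and O5, the lowest mouse for 8 members, was second only to O2 for Nlrc5. H2-D1 was the other member for which O5 lay above every Adult mouse.

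The spread between mice was larger in the Old group than in the other groups. The coefficient of variation of the members had a median of 7.44% in Adult, 51.1% in Old and 12.0% in PDX mice, and for each of the 10 genes it was larger in Old than in PDX. Over all tested genes the medians were 14.4%, 36.6% and 15.8%. O2 exceeded the median of the other Old mice 4.69-fold for Tap1, 3.64-fold for Psmb9, 3.09-fold for Nlrc5 and 2.98-fold for Psmb8, but 1.42-fold for H2-K1 and 1.29-fold for B2m. O5 had 11.0% of the median of the other Old mice for Psmb9, 16.5% for Psmb8, 25.2% for Psmb10 and 33.1% for B2m. By the labels, the frailty index was 0.11 in O2 and 0.56 in O5. The labels also give 3 positive frailty criteria for O2 and 4 for O5, numbers at which the study calls a mouse frail. O3 and P4 likewise had 3 and O4 and P5 had 4, so these numbers do not set O2 and O5 apart. Ifng, which encodes interferon-gamma, had 30 counts in O2 and 0 to 2 counts in each of the other mice, too few to be tested.

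Markers of leukocytes moved with the members in O2. The summed level of 11 T and NK cell markers was 250.5 CPM in O2 and 4.98 CPM in O5, and 10.1 to 15.6 CPM in the Adult mice. All 11 were highest in O2, but Cd4 alone had 115.8 CPM there. Cd3d, Cd3e and Cd3g had 6.64, 7.34 and 15.0 CPM in O2. The 4 MHC class II genes H2-Aa, H2-Ab1, H2-Eb1 and Cd74 summed to 6081 CPM in O2 and 40.1 CPM in O5, with a median of 193.4 CPM in the Adult mice. The sum of 7 myeloid markers was 2969 CPM in O2, 229.4 CPM in O5 and 332.5 to 472.7 CPM in the Adult mice. These markers were divided in O5. Adgre1, Clec4f and Lyz2 lay below every Adult mouse and Csf1r within the Adult range. Itgam, S100a8 and Cd68 (10.7, 9.74 and 19.6 CPM in O5) lay above every Adult mouse. Ptprc, which marks leukocytes in general, had 127 CPM in O2 and 8.12 CPM in O5. The 4 B cell markers did not follow this pattern in O5: they summed to 97.4 CPM in O2 and 9.05 CPM in O5, above the 5.04 to 8.53 CPM of the Adult mice. Among the leukocyte, endothelial and hepatocyte markers only Ncr1 was at 0 counts in any mouse. The part of these cells in the levels of the members was not tested.

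Aging was addressed by comparing Old with Adult mice, and no member passed the test. In edgeR's quasi-likelihood test across all 15 mice, 0 of the 10 members passed an adjusted p of 0.05, beside 1072 of 15808 genes (6.78%). At an unadjusted p under 0.05 there was 1, Nlrc5, where 27.7% of all genes were, and DESeq2 also called 0 (2 unadjusted). For no member did all Old mice lie on 1 side of all Adult mice, against 8.13% of all genes. The smallest p was that of Nlrc5, with a log2 fold change of 0.72 ± 0.33 (SE, 95% interval 0.03 to 1.42, adjusted p = 0.165), whose size rested on O2 and O5. Without these mice it was 0.05 ± 0.21 (adjusted p = 0.900). Among the leukocyte markers, 1 of 10 tested T and NK cell, 3 of 4 B cell and 2 of 7 myeloid genes were called higher in Old, and 0 of 4 class II genes (4 at an unadjusted p under 0.05, 0 in DESeq2). In the fit without O2 and O5 these calls numbered 0, 2, 1 and 0. Their median log2 fold changes went from 2.08 to 0.02 for T and NK cell, 2.43 to 2.09 for B cell, 1.63 to 0.69 for myeloid and 2.79 to 0.62 for class II genes. H2-K1 and B2m had log2 fold changes of -0.30 ± 0.16 (adjusted p = 0.236) and -0.30 ± 0.26 (adjusted p = 0.466). Without O2 and O5, that of H2-K1 was -0.35 ± 0.13 (adjusted p = 0.120) and that of B2m -0.18 ± 0.12 (adjusted p = 0.381). Leaving out O5 alone gave -0.09 ± 0.14 for B2m (adjusted p = 0.680). The median over the 10 members was 0.29 with all mice and -0.03 without O2 and O5, and over all genes 0.07 and 0.01.

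The effect of PDX at old age was addressed by comparing PDX with Old mice, and again no member passed the test. Of the 15808 genes, 0 (0%) had an adjusted p under 0.05 in edgeR, and 0 (0%) under the limit of 0.25 that the study used for this comparison. No member had an unadjusted p under 0.05 in edgeR, where 5.28% of all genes had, or in DESeq2, and DESeq2 called 1 gene, which was no member. For none of them did the groups separate (0.342% of all genes). Log2 fold changes ran from -0.27 ± 0.32 for Nlrc5 to 0.55 ± 0.32 for Psmb10 (SE), and the 95% interval of Psmb10 ran from -0.12 to 1.22. The SD of Psmb10 was 54.7% of the mean in the Old and 8.44% in the PDX mice.

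When O2 and O5 were left out, all 10 members had PDX values above those of the remaining Old mice, O1, O3 and O4, on average. The PDX mice were all above these 3 mice for H2-D1, Tap1, Tap2, Tapbp, Psmb8, Psmb9 and Psmb10, 7 of 10 members, as they were for 2.56% of all genes. An unadjusted p under 0.05 was reached by 8 of 10 members, all higher in PDX, where 6.11% of all genes were. None passed the adjustment, the smallest adjusted p being 0.273 for Psmb8 and Psmb10. Psmb10 had the smallest error, with a log2 fold change of 0.58 ± 0.10 (SE), from 43.0 ± 3.00 CPM (SD, n = 3) to 64.1 ± 5.41 CPM (SD, n = 5). Psmb9 differed by 0.61 ± 0.18, Tap1 by 0.65 ± 0.15 and Psmb8 by 0.56 ± 0.11 on the log2 scale. The median over the members was 0.50, beside -0.01 over all genes. Leukocyte markers moved with the members in this fit: 9 of 10 T and NK cell, 7 of 7 myeloid and 2 of 4 class II genes had an unadjusted p under 0.05, all higher in PDX, but 0 of 4 B cell genes and not Ptprc, and 0 passed the adjustment. Their median log2 fold changes were 1.233 for T and NK cell, 1.08 for myeloid, 0.65 for class II and -0.20 for B cell genes. Summed T and NK cell markers were 11.0 to 13.0 CPM in O1, O3 and O4, below all PDX mice, and myeloid markers 441.1 to 658.4 CPM, overlapping with them. The part of these cells in the difference was not tested.

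**Figure D2:**
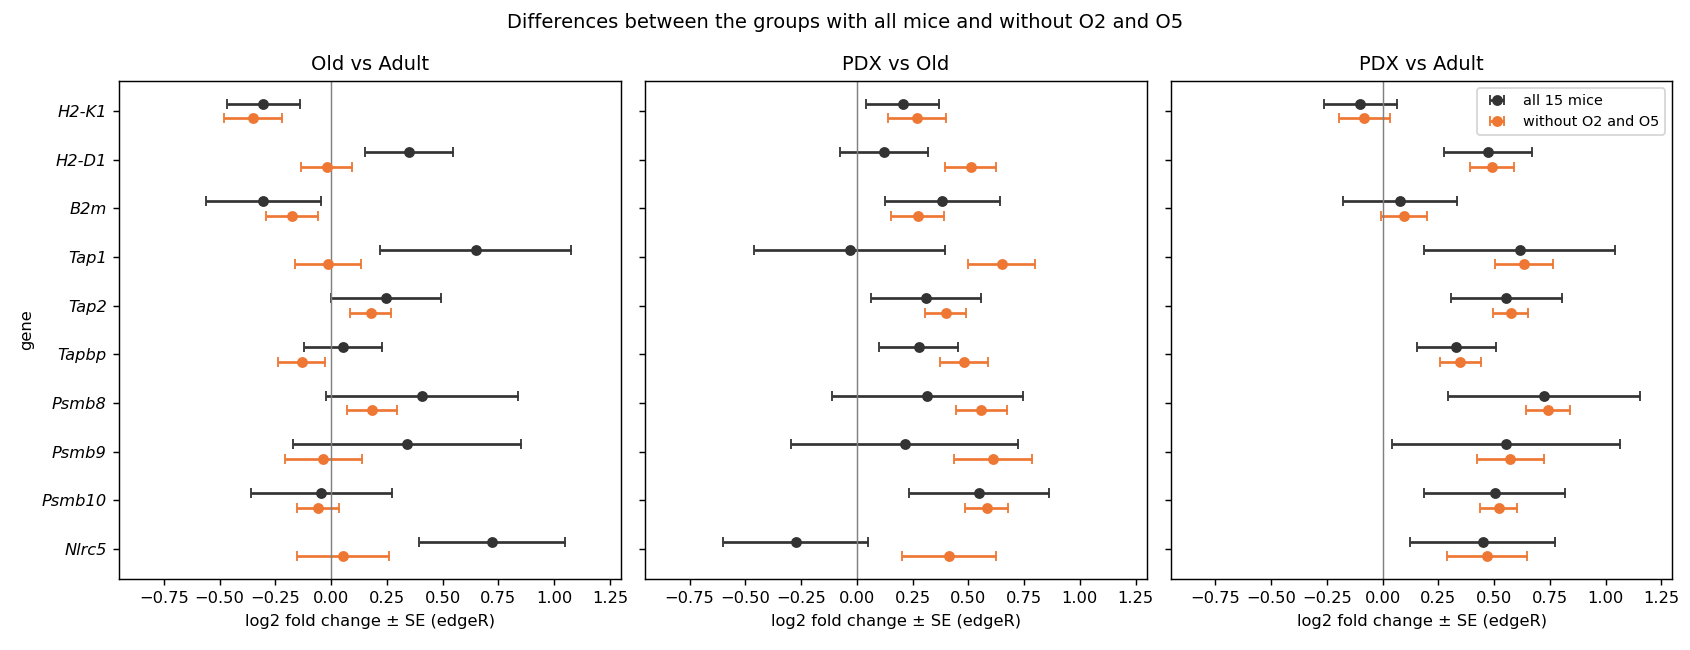
Log2 fold change of each gene ± SE in the 3 comparisons, from edgeR's fit of all 15 mice (dark) and of the 13 mice without O2 and O5 (orange); the vertical line is no difference. Between PDX and Adult both fits gave nearly equal estimates with a smaller error in the second, whereas for Tap1 and Nlrc5 between PDX and Old the estimates lay on opposite sides of the line.

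The treated old mice were further compared with the Adult mice. With all 15 mice, 0 of 10 members passed an adjusted p of 0.05, beside 420 of 15808 genes (2.66%). DESeq2 called 0 as well, and 2 members, H2-D1 and Tap2, had an unadjusted p under 0.05 in edgeR, as had 20.6% of all genes. By level, however, 5 of the 10 genes had every PDX mouse above every Adult mouse, as did 10.5% of all genes: H2-D1, Tap2, Tapbp, Psmb8 and Psmb10. Of the 10 log2 fold changes, 9 were above 0, with a median of 0.49 against -0.01 over all genes. That of H2-K1 was -0.10 ± 0.16 (95% interval -0.45 to 0.25), and that of B2m 0.08 ± 0.26 (-0.47 to 0.63).

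O2 and O5 belong to neither group of this comparison but enter the spread, which the fit shares across the 3 groups. Without these mice 7 of the 10 members were called, all higher in PDX, where 14.4% of all genes were called higher. In a fit of the 10 PDX and Adult mice alone, 7 were called as well (16.1% of all genes). Leaving out O2 alone gave 1 call (Tap1, adjusted p = 0.0478), where 7.76% of all genes were called higher. Leaving out O5 alone gave 1 (Tap2, adjusted p = 0.0368), where 5.35% were. Both are near the share over all genes. The next values are those of the fit without O2 and O5.

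Psmb8 had the largest estimate among the members and rose by 0.74 ± 0.10 on the log2 scale (SE, 1.67-fold, adjusted p = 0.000314), from 51.1 ± 3.60 to 84.3 ± 8.72 CPM (SD, n = 5 each). With all mice its estimate was 0.72 ± 0.43 (adjusted p = 0.356). Tap1 rose by 0.63 ± 0.13 (1.55-fold, adjusted p = 0.00351) and Tap2 by 0.57 ± 0.08 (1.49-fold, adjusted p = 0.000401). Psmb9 rose by 0.57 ± 0.15 (1.49-fold, adjusted p = 0.0131) and Psmb10 by 0.52 ± 0.08 (1.44-fold, adjusted p = 0.000874). H2-D1, the only heavy chain among the calls, rose by 0.49 ± 0.10 (1.40-fold, adjusted p = 0.00348). Tapbp rose by 0.35 ± 0.09 (1.27-fold, adjusted p = 0.0135). Nlrc5 did not pass (0.47 ± 0.18, adjusted p = 0.0712), nor did H2-K1 (-0.08 ± 0.11, adjusted p = 0.649) or B2m (0.10 ± 0.10, adjusted p = 0.529). With all 15 mice, none of these 7 calls held, the adjusted p of the 7 genes lying between 0.191 (H2-D1) and 0.581 (Psmb9).

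Leukocyte markers also separated these groups by their sums, though not every gene did. Every PDX mouse was above every Adult mouse for 4 of 10 tested T and NK cell, 4 of 4 B cell, 7 of 7 myeloid and 4 of 4 class II genes. Over all genes the share was 10.5%. Summed T and NK cell markers ran from 10.1 to 15.6 CPM in Adult and from 17.0 to 49.6 CPM in PDX mice, and myeloid markers from 332.5 to 472.7 and from 588.0 to 1257 CPM, without overlap. Class II genes, with medians of 193.4 and 407.7 CPM, did not overlap either. B cell markers ran from 5.04 to 8.53 CPM in Adult and from 14.6 to 53.3 CPM in PDX mice. Ptprc had 8.31 to 14.4 CPM in the Adult and 21.6 to 47.9 CPM in the PDX mice. Hepatocyte sums overlapped (128303 to 138882 and 105773 to 162778 CPM), as did endothelial sums (219.8 to 232.8 and 205.6 to 266.9 CPM). With all mice, 0 of these leukocyte markers passed edgeR's test between PDX and Adult. At an unadjusted p under 0.05 there were 3 T and NK cell, 4 B cell, 5 myeloid and 0 class II genes and Ptprc, and DESeq2 called 3 B cell and 3 myeloid genes. In the fit without O2 and O5, higher levels in PDX were called for 7 of 10 T and NK cell, 4 of 4 B cell, 7 of 7 myeloid and 4 of 4 class II genes and for Ptprc. Over all genes, 14.4% were called higher in that fit. Among 4 endothelial genes 1 was called in each direction, and among 6 hepatocyte genes 1 was higher and 2 were lower. The part of leukocytes in the levels of the members was not tested.

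Each inducible subunit was compared with the standard subunit it replaces by their mRNA ratio, a value per mouse that library scaling does not touch. The ratios are of counts in whole liver, not of molecules per length. Exchange of subunits in the proteasome itself was not measured, and the part of leukocytes in the ratios was not tested. Psmb5 had 50.3 to 55.7 CPM in the Adult and 52.5 to 60.0 CPM in the PDX mice. Psmb6 and Psmb7 also overlapped between these groups, at 101 to 120 against 108 to 129 CPM and 133 to 151 against 131 to 153 CPM. In O2 all 3 standard subunits were the lowest of the Old group, at 39.1, 73.3 and 91.7 CPM, while all 3 inducible subunits were the highest of all mice. None of the standard subunits passed edgeR's or DESeq2's test in any comparison with all mice, nor reached an unadjusted p under 0.05 in edgeR, and without O2 and O5 their log2 fold changes between PDX and Adult were 0.10, 0.08 and -0.03.

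The Psmb8 to Psmb5 ratio of CPM was 0.98, 0.88, 1.12, 0.91 and 0.95 in the Adult mice, 0.94, 3.99, 1.17, 0.73 and 0.17 in the Old mice, and 1.22, 1.85, 1.37, 1.64 and 1.48 in the PDX mice. Every PDX mouse was above every Adult mouse, and O2 and O5 lay at the opposite extremes. The log2 ratio was 0.64 higher in PDX than in Adult mice (1.55-fold). The exact permutation test, two-sided, gave p = 0.00794 and, over 9 ratio comparisons, an adjusted p of 0.0357. For Psmb10 to Psmb7 the ratio was 0.27 to 0.35 in Adult, 0.10 to 0.86 in Old and 0.39 to 0.56 in PDX mice. Adult and PDX did not overlap, and the log2 ratio differed by 0.55 (1.47-fold, exact permutation p = 0.00794, adjusted p = 0.0357). For Psmb9 to Psmb6 it was 0.14 to 0.25 in Adult, 0.03 to 1.00 in Old and 0.19 to 0.34 in PDX mice. This ratio was above the Adult mean in 4 of 5 PDX mice, and the difference of 0.49 on the log2 scale (exact permutation p = 0.0476) did not pass the adjustment (adjusted p = 0.143). The smallest p that 5 against 5 mice allow is 0.00794.

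Between PDX and Old, the log2 ratios were higher in PDX by 0.76 for Psmb8 to Psmb5, 0.76 for Psmb9 to Psmb6 and 0.69 for Psmb10 to Psmb7. None passed the exact permutation test (p = 0.405, 0.444 and 0.230, with adjusted p of 0.667, 0.667 and 0.518). The SD of the Old mice was 1.64, 1.82 and 1.12 on the same scale, and that of the PDX mice 0.23, 0.32 and 0.18. With O2 and O5 left out, all PDX mice were above O1, O3 and O4 for Psmb8 to Psmb5 and for Psmb10 to Psmb7 (difference 0.69 in both, exact permutation p = 0.0357, the smallest that 5 against 3 mice allow). For Psmb9 to Psmb6 they overlapped (0.82, exact permutation p = 0.0714). The p-values without O2 and O5 are unadjusted, and these mice were the highest and the lowest of all for each ratio. Without O5 alone the differences were 0.16, 0.15 and 0.30 (exact permutation p = 0.810, 0.889 and 0.460). No ratio passed the exact permutation test between Old and Adult (p = 0.738, 0.698 and 0.635).

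**Figure D3:**
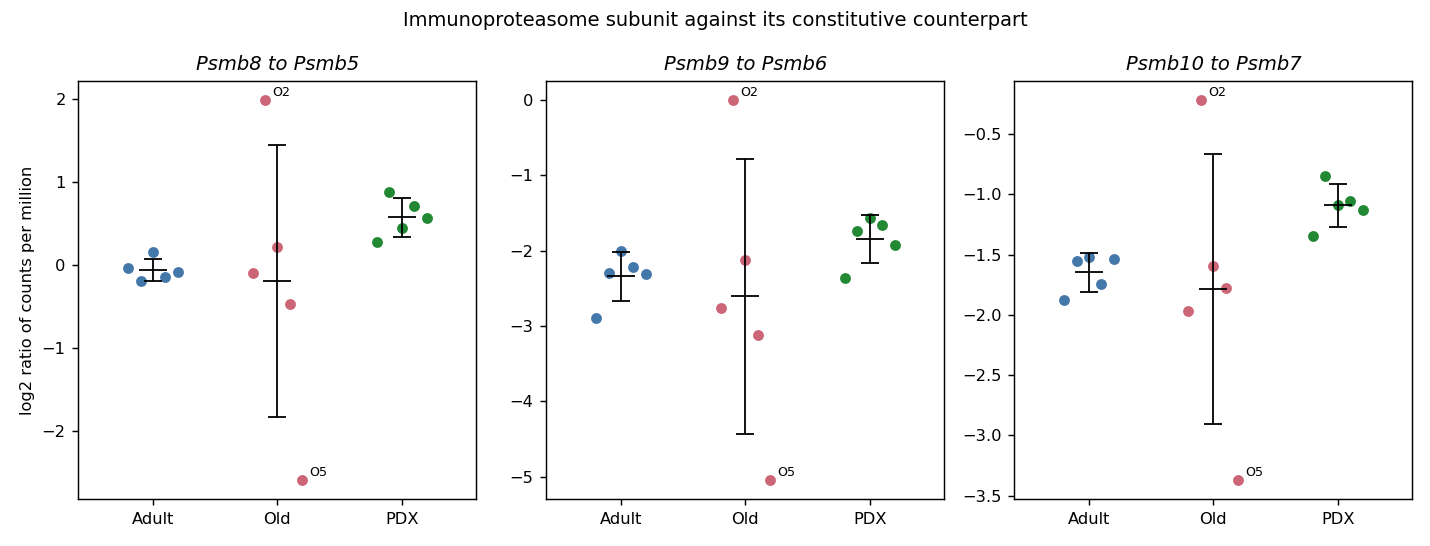
Log2 ratio of CPM of each inducible proteasome subunit to the standard subunit it replaces, by mouse and group; points are mice, horizontal marks means and bars 1 SD (n = 5), and each panel has its own axis. The PDX mice lie above the Adult mice for Psmb8 to Psmb5 and Psmb10 to Psmb7, and O2 and O5 mark both ends in every panel.

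The composition of class I transcripts was described by a pair of further ratios, chosen after the levels had been seen and thus given without a test. H2-D1 to H2-K1 was 0.40, 0.39, 0.39, 0.38 and 0.40 in the Adult mice, 0.53, 0.71, 0.43, 0.53 and 0.89 in the Old mice, and 0.61, 0.60, 0.63, 0.58 and 0.50 in the PDX mice. All 10 old mice, treated or not, lay above all 5 Adult mice, whose SD was 0.01. B2m to the sum of H2-K1 and H2-D1 was 0.45 to 0.47 in the Adult and 0.42 to 0.49 in the PDX mice. In the Old mice it was 0.55, 0.41, 0.45, 0.47 and 0.15. O5 was far below all other mice, Adult and PDX included. Both are ratios of counts, not of molecules per length, and the heavy chains share stretches with other class I genes as given above.

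**Figure D4:**
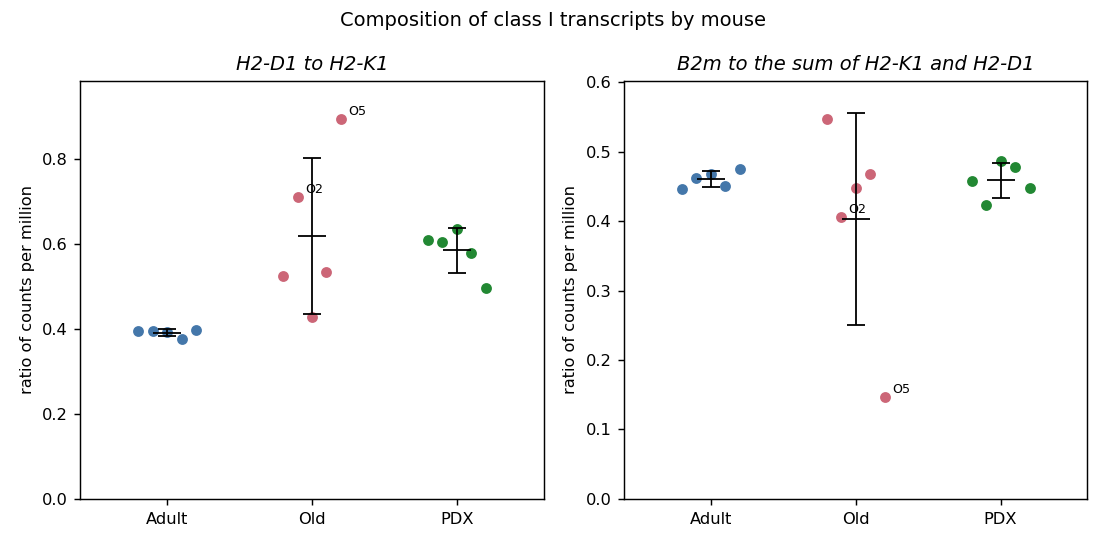
Ratio of CPM of H2-D1 to H2-K1 (left) and of B2m to both heavy chains (right), by mouse and group; points are mice, horizontal marks means and bars 1 SD (n = 5), and both axes start at 0. The Adult mice lie between 0.38 and 0.40 on the left, below every old mouse, and O5 is far below the others on the right.

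Other genes of the pathway were counted by list. Of 18 tested class I and class I-like genes other than H2-K1 and H2-D1, 1 rose and 1 fell between Old and Adult. Over all genes, 6.78% were called in this comparison. H2-M2, a nonclassical class I gene, rose by 4.59 ± 1.08 on the log2 scale (SE, adjusted p = 0.0273), from 0.14 to 0.36 CPM in the Adult mice to 0.85, 24.4, 1.55, 1.34 and 0.18 CPM in O1 to O5. O2 was far above the others and O5 within the Adult range. The estimate was 2.07 (adjusted p = 0.0454) without O2 and 2.42 (adjusted p = 0.00557) without O2 and O5. Fcgrt, the receptor that recycles IgG and albumin, fell by 0.55 ± 0.13 (adjusted p = 0.0281), from 217 ± 9.55 to 148 ± 25.1 CPM (SD, n = 5 each), and every Old mouse was below every Adult mouse. Both calls were lost without any single Adult mouse (A1 to A5), with an adjusted p of 0.0637 to 0.0721 for H2-M2 and 0.0600 to 0.0710 for Fcgrt. H2-M2 was also lost with limma-voom (2.83, adjusted p = 0.198), on the deposited variance-stabilized values (1.76, adjusted p = 0.131) and with a replicate block (3.15, adjusted p = 0.117), and DESeq2 gave it no adjusted p. Fcgrt was also lost with no filter (adjusted p = 0.0585), with 10 mice (0.116) and with a replicate block (0.0792). Between PDX and Adult, 0 genes of this list passed with all mice in edgeR (3 at an unadjusted p under 0.05, and 1 lower in DESeq2), and 6 were called higher and 2 lower without O2 and O5. In that fit, 14.4% of all genes were called higher in PDX, and 1655 of 16275 lower. Between PDX and Old, 0 passed in edgeR or DESeq2, with 0 at an unadjusted p under 0.05 in edgeR.

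Of 8 genes of peptide loading and trimming other than the members, 2 rose between Old and Adult and 3 between PDX and Adult, while 0 passed between PDX and Old in edgeR (0 at an unadjusted p under 0.05) or DESeq2. Over all genes, 6.78% were called between Old and Adult and 2.66% between PDX and Adult. Calr, the calreticulin chaperone of the loading complex, had 646 to 766 CPM in the Adult, 961 to 2695 CPM in the Old and 1370 to 2086 CPM in the PDX mice. It rose by 1.25 ± 0.25 in Old (adjusted p = 0.0154) and by 1.15 ± 0.25 in PDX (adjusted p = 0.0230), and neither group overlapped with Adult. Pdia3, the disulfide isomerase of the same complex, had 326 to 395, 415 to 1037 and 567 to 796 CPM in the Adult, Old and PDX mice and rose by 0.99 ± 0.21 (adjusted p = 0.0222) and 0.86 ± 0.21 (adjusted p = 0.0465). Both are general chaperones of the endoplasmic reticulum and serve many glycoproteins. Tapbpl, a peptide editor related to tapasin, rose between PDX and Adult (0.49 ± 0.11, adjusted p = 0.0323), from 26.9 to 33.8 CPM in the Adult to 36.1 to 47.7 CPM in the PDX mice. Between Old and Adult its log2 fold change was 0.26 ± 0.11 (adjusted p = 0.158). These values are from all 15 mice, and O2 was the lowest of the Old mice for Calr and Pdia3. Without O2 and O5 all 5 calls held. Leaving out single mice lost the call of Calr between Old and Adult without A3 (adjusted p = 0.0502) and A5 (0.0506), and that of Pdia3 without A2, A3, A4 and A5 (0.0583 to 0.0613). Between PDX and Adult, any Adult mouse and P1, P2 or P4 left out lost the call of Calr (adjusted p 0.0519 to 0.0731). That of Pdia3 was lost without any Adult or PDX mouse or O4 (0.0526 to 0.123), and that of Tapbpl without any Adult mouse or P1 to P4 (0.0525 to 0.0991). Over all 24 alternatives, left-out mice included, the call of Calr held in 21 and 16 between Old and Adult and between PDX and Adult, that of Pdia3 in 19 and 11, and that of Tapbpl in 13.

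Of the 8 standard proteasome subunits and activators, 0 passed in any comparison with all mice in edgeR, 0 at an unadjusted p under 0.05, and 0 in DESeq2. Of 24 tested regulators, 1 passed between Old and Adult, and 2 higher and 1 lower in DESeq2. Of all genes, 6.78% passed in edgeR, and DESeq2 called 1861 of 19355 higher and 743 lower. Nfyb, a subunit of the CCAAT-binding factor NF-Y, fell by 0.51 ± 0.14 (adjusted p = 0.0468), from 37.4 to 45.8 CPM in the Adult mice to 20.3 to 34.3 CPM in the Old mice. It lost the call without O2 and O5 (adjusted p = 0.107) and without any Adult mouse, O2, O4, P2, P3 or P4 alone (0.0509 to 0.108), and kept it in 7 of 24 alternatives. Irf1, a transcription factor induced by interferon, had 42.7 to 71.6 CPM in the Adult, 37.1 to 151 CPM in the Old and 66.0 to 99.0 CPM in the PDX mice. Its log2 fold change between PDX and Adult did not pass with all mice (0.44 ± 0.31, adjusted p = 0.447) or without O2 and O5 (0.46, adjusted p = 0.0625). Of the regulators, 0 passed between PDX and Adult with all mice in edgeR (4 at an unadjusted p under 0.05, and 1 higher in DESeq2), and 8 were called higher and 1 lower without O2 and O5. Of all genes, 14.4% were called higher in that fit, and 1655 of 16275 lower.

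Of 20 interferon-stimulated genes set beside the members, among them Gbp2, Iigp1, Cxcl9 and Isg15, 0 passed in any of the 3 comparisons with all mice in edgeR or DESeq2. At an unadjusted p under 0.05 there were 2 between Old and Adult, 1 between PDX and Old and 2 between PDX and Adult. Over all genes the shares were 27.7%, 5.28% and 20.6%. All 20 log2 fold changes between PDX and Adult were above 0, with a median of 0.67. When O2 and O5 were left out, 11 were called higher in PDX than in Adult (median 0.69), as were 14.4% of all genes. Between PDX and Old in that fit, 0 passed and 19 had an unadjusted p under 0.05, all higher in PDX, with a median of 0.97. Over all genes, 6.11% were higher in PDX at this limit. The median between Old and Adult was 0.38 with all mice and -0.33 without O2 and O5.

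The members were compared with each other by Pearson's r of log2 CPM over the 15 mice, a description that includes the group differences and the common scaling of each library. With the mean of the other 9 members, r was 0.94 for Tap1, 0.93 for Tap2, 0.90 for Tapbp and Psmb8, 0.89 for Psmb9 and 0.86 for Psmb10. It was 0.73 for B2m, 0.56 for H2-K1, 0.45 for Nlrc5 and 0.40 for H2-D1. Without O2 and O5 (13 mice), H2-D1 had 0.94, Nlrc5 0.66 and H2-K1 0.31. H2-K1 was then the member least like the rest.

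Among 12013 other genes of at least 1 mean log2 CPM, those most like the mean of the members were Gm12250 (r = 0.99 over 15 mice, 0.98 without O2 and O5), Tgtp1 (0.98 and 0.95), H2-T10 (0.97 and 0.92), Samhd1 (0.96 and 0.90) and Gbp7 (0.95 and 0.87). Tgtp1 and Gbp7 encode interferon-inducible GTPases, H2-T10 a class I heavy chain and Samhd1 a nucleotide hydrolase. Tgtp1 had 36.9 CPM in O2 and 0.36 CPM in O5, and means of 2.20, 8.75 and 8.02 CPM in the Adult, Old and PDX groups. The genes most opposite were Hspa9 (-0.93 and -0.83), the mitochondrial heat shock protein, Elac2 (-0.91 and -0.73), a tRNA-processing nuclease, and Imp3 (-0.91 and -0.77), a component of ribosomal RNA processing. Hspa9 had 290 CPM in O2 and 746 CPM in O5, with means of 572, 521 and 458 CPM in the Adult, Old and PDX groups.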

How the data were processed

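Liver mRNA of 15 mice was analyzed, 1 library per mouse. The authors aligned read pairs to mm10 with STAR (version 2.6.0c) and made counts of unique proper pairs per gene, on its strand, with featureCounts (Subread 1.6.2, Ensembl 100 annotation). The deposited table of counts holds no normalization. A further table from the authors holds log2-scale values, made with the variance stabilizing transformation (VST) of DESeq2 (version 1.23.10), which served only as an alternative. Each column names 1 mouse, and 0 columns went unused. GENCODE M21 gave a symbol to 55190 of the 55450 gene IDs and also the coordinates.

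Counts were analyzed with edgeR (version 4.0.16): genes were kept by filterByExpr within groups at a minimum count of 10 and a minimum total of 15, followed by TMM scaling and a quasi-likelihood fit of all 15 mice with 1 coefficient per group. P-values were adjusted by Benjamini-Hochberg over all tested genes, and errors of fold changes are standard errors. Log2 CPM used a prior count of 2. Ratios were tested with exact two-sided permutation tests in scipy 1.17.1. DESeq2 (1.42.0), limma (3.58.1), other normalizations, no filter, left-out mice and a replicate block were alternatives. On simulated counts with 200 of 15808 genes changed between PDX and Adult, edgeR recovered 172 (12 false calls) at a log2 change of 2 and 68 (3 false calls) at 1.

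The members and lists were chosen with earlier results of these data known. Named genes are the members, up to 4 genes per list with the smallest adjusted p under 0.05, Psmb5, Psmb6, Psmb7, Irf1 and Ifng, and the 5 genes most alike and 3 most opposite. A further named gene is not reported here. H2-Q8 and H2-Q9 were not analyzed here, and H2-T3, Ifng and Ncr1 had too few counts to be tested. The sample labels give 9 weeks of gavage and the series description a different number. Promoter windows are those of RefSeq (GRCm38.p6).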

Additional observations from a re-analysis of the deposited data

Results flagged for a closer look

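In 39 groups of 5 mice (the members and the ratios), 3 had a mouse far from the others by Dixon's criterion, which chance gives in about 1 of 20 groups. In the Old group, O2 had 155 CPM of Tap1 (next 38.2 CPM) and 179 CPM of Tapbp (next 106 CPM). In the PDX group, P1 had 38.9 CPM of Tap1, below the next mouse at 54.2 CPM.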

How the results depend on the processing

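Of 720 alternative values for the log2 fold changes of the members, 679 kept their direction and their side of the threshold, 25 changed sign (15 between Old and Adult, 10 between PDX and Old) and 16, all between PDX and Adult, newly passed the threshold. No call changed direction, and the cause of these shifts was not tested. Members called between PDX and Adult numbered 7 in the fit of 10 mice and 7 without O2 and O5, against 0 with all mice, and 0 to 1 when single mice were left out (1 without O2, 1 without O5).

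Between Old and Adult, the values of changed sign without O2 and O5 were -0.020 for H2-D1, -0.014 for Tap1, -0.13 for Tapbp and -0.036 for Psmb9. With limma-voom they were -0.012 for Tapbp, -0.059 for Psmb8 and -0.26 for Psmb9, and on the VST values -0.031 for Psmb8 and -0.24 for Psmb9. Leaving out single mice gave -0.20 (without O2) to 0.87 (without O5) for Tap1, and by the same mice -0.038 to 0.44 for Tap2, -0.15 to 0.68 for Psmb8, -0.39 to 0.63 for Psmb9 and -0.35 to 0.20 for Psmb10. For Tapbp it gave -0.17 (without O2) to 0.14 (without O1). Between PDX and Old, Tap1 was above 0 with upper-quartile scaling (0.018), limma-voom (0.39), the VST values (0.37), the replicate block (0.29) and without O2 and O5 (0.65), and ran from -0.26 (without O5) to 0.82 (without O2). Psmb9 ran from -0.080 to 0.95 by the same mice. Nlrc5 was 0.41 without O2 and O5 and ran from -0.45 (without O1) to 0.21 (without O2).

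The log2 ratios between Old and Adult ran from -0.67 to 0.47 for Psmb8 to Psmb5, -0.92 to 0.34 for Psmb9 to Psmb6 and -0.53 to 0.26 for Psmb10 to Psmb7 when single mice were left out. Between PDX and Old they ran from 0.16 to 1.31, 0.15 to 1.41 and 0.30 to 1.09, and passed an unadjusted exact permutation test without O2 (p = 0.0159, 0.0317 and 0.0159). Without O2 and O5, Psmb8 to Psmb5 and Psmb10 to Psmb7 both gave 0.69. Between PDX and Adult, Psmb9 to Psmb6 ran from 0.36 to 0.62 (unadjusted exact permutation p from 0.0159 without P1 to 0.0952, and at least 0.0635 without any other single mouse of the 10).

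Over all genes, 1072 were called between Old and Adult, against 665 with no filter, 2604 with DESeq2, 469 with limma-voom, 651 on the VST values, 105 with 10 mice, 237 with the replicate block and 156 (without A5) to 2178 (without O3) with single mice left out. Between PDX and Old, DESeq2 called 1 gene. Between PDX and Adult, 420 were called, against 1384 with DESeq2, 4529 with 10 mice, 4004 without O2 and O5 and 166 (without A5) to 1766 (without O2) with single mice left out.

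Same-numbered mice had deviations with a mean correlation of -0.17 (Old and Adult), 0.03 (PDX and Adult) and 0.09 (PDX and Old). For mice of different numbers it was 0.04, -0.01 and -0.02. With 5 same-numbered pairs per comparison, these values cannot settle whether the numbers pair the mice. Within each group the numbers run in the order of the frailty criteria in the labels, so a block by number follows that order. With a replicate block, 0 members were called in each comparison, and of all genes 237, 0 and 316 between Old and Adult, PDX and Old, and PDX and Adult. As pairs, the ratios between PDX and Adult differed by 0.64, 0.49 and 0.55 (exact p = 0.0625, the smallest that 5 pairs allow). Depth limited Psmb9 most among the members, with 73 counts in O5, and 5 mice per group limited the ratio tests.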
